A study of Mus musculus and Bos taurus with 2 samples.

Results

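Sp100, Sp110 and Sp140 are 3 genes of the Sp100 nuclear body family, searched here by symbol, and the mouse late 2-cell library held 26 transcript models under their names among 42028 models in all. The bovine 8-cell to 16-cell library held none among 40819 models, so Sp100, Sp110 and Sp140 were not assembled there. A model was taken as a member when its gene name equalled one of the 3 symbols, ignoring case. The 3 genes were chosen by symbol with their numbers of mouse models already known, so those numbers are given as a description with no test. In the mouse library Sp140 held 19 sense models, Sp110 held 6, and Sp100 held no sense model and 1 model on the opposite strand.

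The family encodes chromatin-associated proteins of the PML nuclear body, a subnuclear structure built around the SUMO-modified scaffold protein PML. Its members combine a SAND domain, which binds DNA, with modules that read histone marks, such as the bromodomain, in many of their forms, and SP100 was first described as an autoantigen. In adult tissues Sp140 and Sp110 are best known from immune cells, and interferons raise the transcription of family members.

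The study assembled transcripts from long nanopore reads of embryos at the stage when their own genome becomes active. The mouse library came from Slc:ICR oocytes obtained by superovulation, fertilized in vitro, grown in KSOM medium and collected at the late 2-cell stage, 36 h after insemination. The bovine library came from oocytes of cattle that were either Japanese Black or the Japanese Black × Holstein F1 cross, matured and fertilized in vitro with Japanese Black bull sperm and collected at 72 h as 8-cell to 16-cell embryos. Each library pooled about 200 embryos, both carry batch 1 in the labels, and each was read on a flow cell of its own after 14 cycles of PCR. With 1 library per species there was no replicate error and no test, and species, stage, hours and reference annotation cannot be told apart. The deposited models carry no read count or coverage, so read depth is unknown for every member, and a number of models is not a level of expression.

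A transcript model is a set of exons joined from reads. The class code given with it states its relation to the closest reference transcript: "=" has the same chain of introns, "j" shares some splice sites, "n" keeps an intron, "o" overlaps on the same strand in another way and "x" lies on the opposite strand. Every code but "x" counted as sense among the 26 models. In GENCODE M21, on build GRCm38 (mm10), Sp110 spans chr1:85576899-85598817 on the minus strand, Sp140 chr1:85600378-85645037 on the plus strand and Sp100 chr1:85649988-85709998 on the plus strand. The annotated start, end, start codon, stop codon, coding sequence and exon numbers of Sp140 are those of 1 GENCODE transcript of 17 exons, called the reference transcript, which begins at 85600703. Another GENCODE transcript of Sp140 begins further upstream, at 85600378, and the RefSeq gene at 85587491.

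The Sp140 exons below were held by some models and left out or shortened in others. They are shown 5′ to 3′ on the plus strand of chromosome 1, as the GENCODE M21 transcripts give them. Capitals in exon 12 mark the 3 bases that some models dropped, and capitals in the 81-base exon mark the annotated stop codon, at which the printed sequence ends.
Exon 12, chr1:85637824-85637865: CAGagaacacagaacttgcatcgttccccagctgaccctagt
81-base exon up to its stop codon, chr1:85628178-85628221: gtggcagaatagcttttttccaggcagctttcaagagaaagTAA
Exon 9, chr1:85630460-85630564: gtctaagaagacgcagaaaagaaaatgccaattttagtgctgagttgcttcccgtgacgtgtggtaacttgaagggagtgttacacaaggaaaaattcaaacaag
Exon 15, chr1:85642935-85643012: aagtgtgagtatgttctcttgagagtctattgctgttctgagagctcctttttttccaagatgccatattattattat
Exon 16, chr1:85643203-85643346: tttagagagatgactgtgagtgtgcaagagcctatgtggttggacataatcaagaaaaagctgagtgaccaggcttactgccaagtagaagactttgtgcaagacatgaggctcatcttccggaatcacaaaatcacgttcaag

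The windows at the starts of Sp110 and Sp140 are shown because both Sp110 models with a reference intron chain started at one of the Sp110 starts below. Each window holds 200 bases before and 25 bases from the start, read in the direction of transcription, from the RefSeq table of build GRCm38.p6, which matched all 3 symbols. Capitals mark a 17-base stretch in the first window and AANNGAAA, read on either strand, in the second, and the Sp140 window held neither.
Sp110, start 85603891, chr1:85603867-85604091, minus strand: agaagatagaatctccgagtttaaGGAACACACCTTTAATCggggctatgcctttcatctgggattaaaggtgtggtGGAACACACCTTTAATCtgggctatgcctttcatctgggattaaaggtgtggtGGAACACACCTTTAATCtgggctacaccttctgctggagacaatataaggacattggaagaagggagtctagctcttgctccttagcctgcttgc
Sp110, start 85598810, chr1:85598786-85599010, minus strand: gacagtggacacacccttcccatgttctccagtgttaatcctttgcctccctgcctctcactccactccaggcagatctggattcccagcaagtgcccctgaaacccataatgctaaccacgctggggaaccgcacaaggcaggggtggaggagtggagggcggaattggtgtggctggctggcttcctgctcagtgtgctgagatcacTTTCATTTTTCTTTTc
Sp140, start 85600703, chr1:85600503-85600727, plus strand: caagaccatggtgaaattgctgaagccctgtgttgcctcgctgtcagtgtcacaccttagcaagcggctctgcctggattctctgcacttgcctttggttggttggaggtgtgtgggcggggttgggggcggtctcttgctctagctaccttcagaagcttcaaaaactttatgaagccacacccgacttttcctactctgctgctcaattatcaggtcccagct

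Sp140 stood near the top of the mouse library for the number of its models. It had 19 sense models, where the median named gene had 2, and 8 of 14090 named genes with a sense model had more. At least 19 sense models were found in 0.0781% of those genes, and in 0.24% of the 4576 genes whose longest model had at least 10 exons. Sp110, with 6 models, sat among the 5.9% of genes with at least 6, or 11.7% of the genes of at least 10 exons. Sp100 was among the 613 named genes with an antisense model and no sense model, which was 4.17% of the 14703 genes with a model of either kind. A sense model was present for 53.5% of the 21900 protein-coding genes of the RefSeq table.

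**Figure D1:**
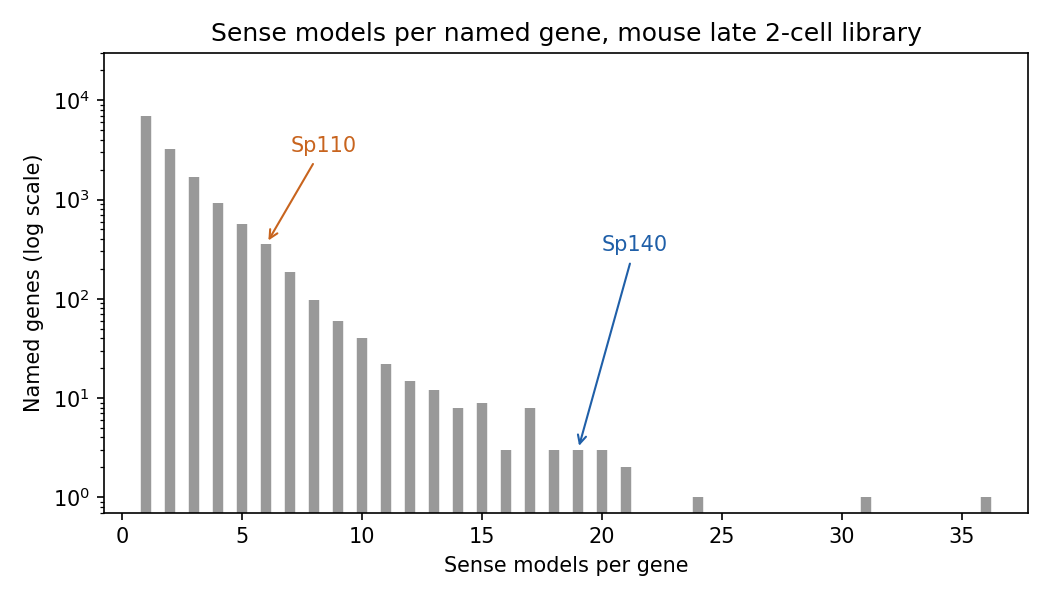
Number of named genes (log axis) against sense models per gene in the mouse late 2-cell library. Most genes had 1 or a few models, Sp110 had 6 and Sp140 had 19, with 8 genes further to the right.

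Of the 19 Sp140 models, 9 had the intron chain of a reference transcript and 10 shared only some splice sites. No intron chain occurred more than once, so the 19 models were 19 different splice forms, of 3 to 17 exons (median 15) and 784 to 2640 bases (median 2380). The 9 exact matches covered 9 of the 18 RefSeq transcripts listed for Sp140. The 6 Sp110 models had 2 to 13 exons (median 7) and 1718 to 3593 bases (median 2270), and 2 of them matched 2 of the 12 RefSeq transcripts of Sp110. None of the 18 RefSeq transcripts of Sp100 was matched.

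**Figure D2:**
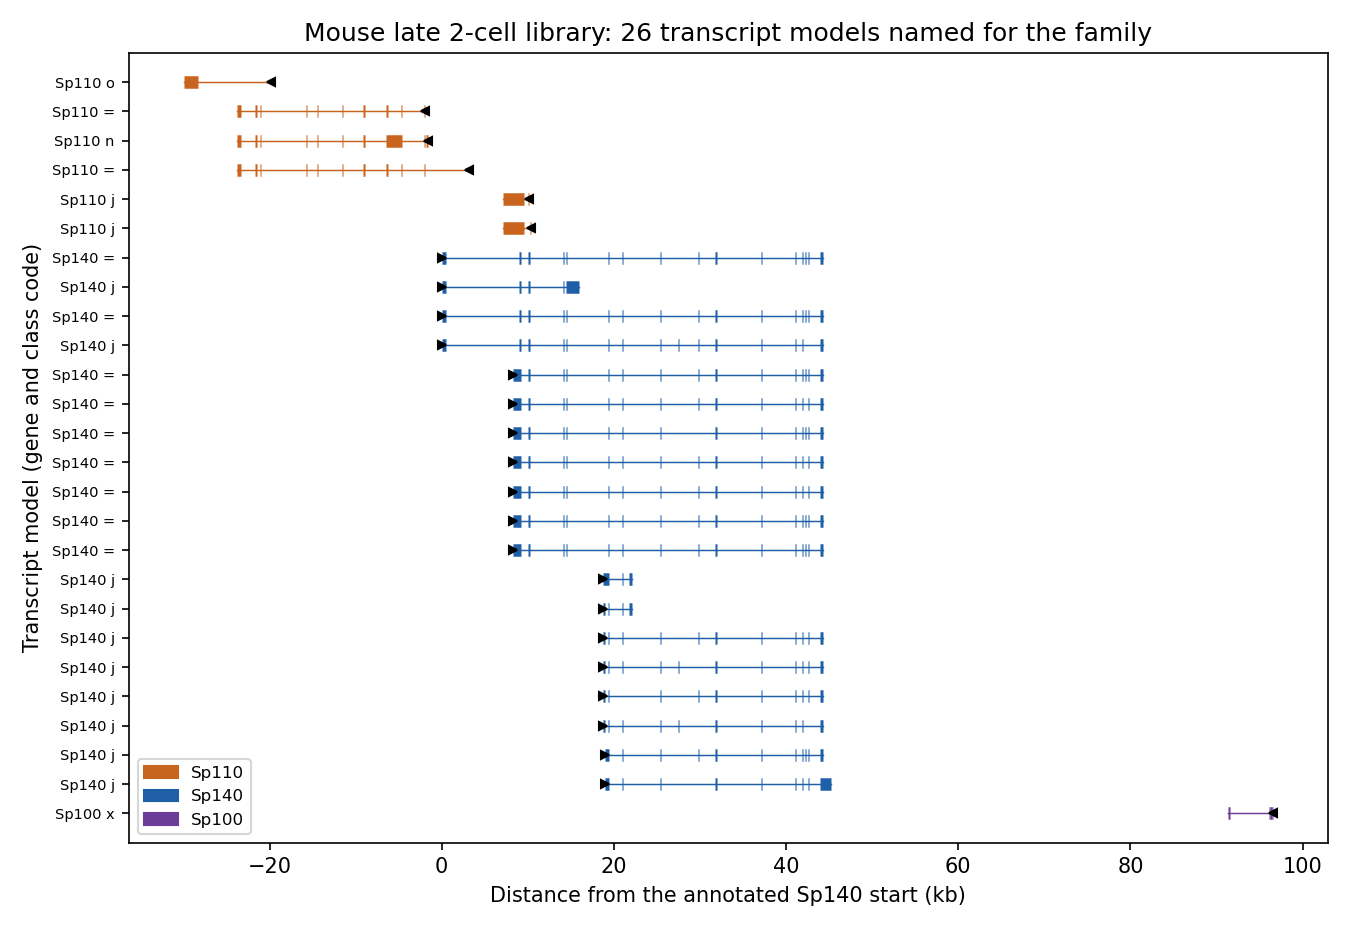
Exons (thick) and introns (thin) of the 26 mouse models along chromosome 1, in kb from the annotated Sp140 start, with arrowheads at each start and labels of gene and class code. The 19 Sp140 models fell into 4 start groups, 2 Sp110 models lay wholly within Sp140, and the single Sp100 model ran against the direction of Sp100.

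The Sp140 models fell into 4 start groups as the deposited table defines them, and at least 4 start groups were found in 2.13% of named genes. The first group, at the annotated start, held 4 models, of which 1 began at 85600703 and 3 began 34 bases further on, at 85600737. All 4 held the annotated start codon, and 3 reached the annotated stop codon.

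The second group held the most models. Its 7 models all began at 85609008, which is 8305 bases downstream of the annotated start and within the first intron, and all ended at 85645040. Their first exon of 849 bases ran on into exon 2. All 7 had the intron chain of a reference transcript and differed from each other only in internal splicing. Because ends of exact matches may be taken over from the reference, the shared start and end do not count as 7 separate measurements of these positions. None held the annotated start codon of the reference transcript, all held its stop codon, and they covered 91.4% to 98.0% of its coding sequence of 1602 bases.

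The third group held 6 models that began at 85619434, 18731 bases downstream of the annotated start, between exons 5 and 6. None had a reference intron chain. In 5 of them the first exon was chr1:85619434-85619640, 207 bases long, on which neither GENCODE M21 nor any exact match had an exon on that strand. In the other model the first exon ran on unspliced through exon 6, over 724 bases. The fourth group held 2 models that began at 85619641, the base that follows the 207-base exon, with a first exon of 517 bases that also ran into exon 6. The models of the last 2 groups covered 9.74% to 68.5% of the coding sequence, none with the annotated start codon.

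**Figure D3:**
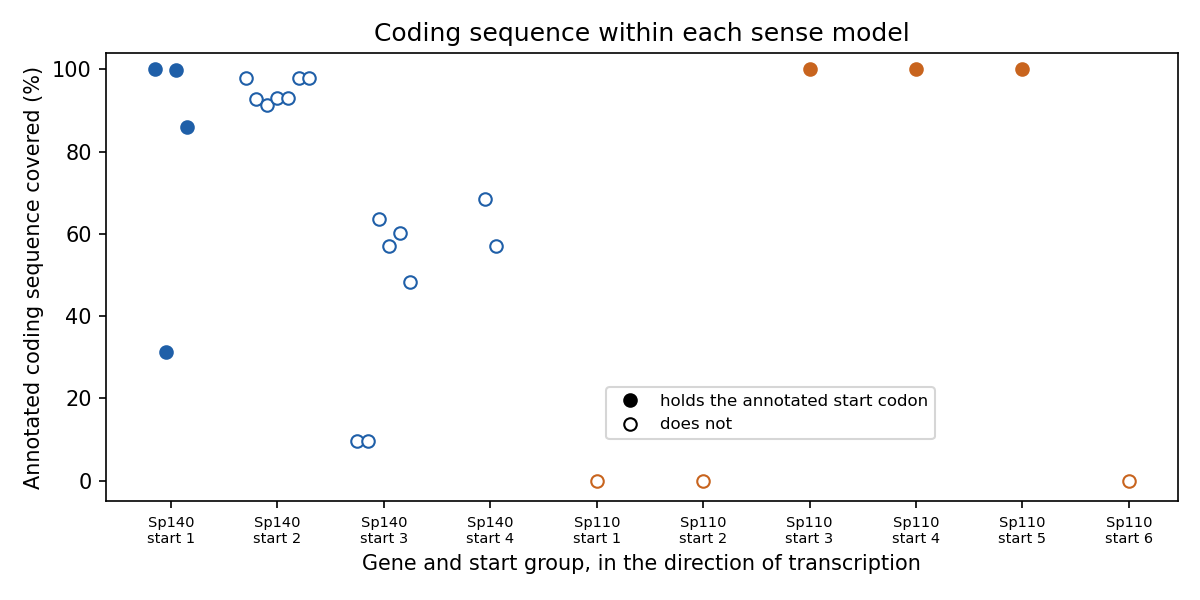
Share of the annotated coding sequence held by each sense model of Sp140 and Sp110, by start group in the direction of transcription, with filled points for models that hold the annotated start codon. The first Sp140 group and the 3 Sp110 models at 100% are filled, and the other Sp140 groups and the 3 Sp110 models at 0% are open.

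Over all 19 Sp140 models, 4 held the annotated start codon, 16 held the stop codon, 3 held both, and 1 held the whole annotated coding sequence. Reading frames of the other models were not predicted here. A first exon outside the annotation was found in 5 Sp140 and 3 Sp110 models, where annotation means GENCODE M21 and the exact matches of the library. In the whole mouse library this held for 28.3% of 12537 sense models that were not exact matches and shared a splice site with the annotation. RefSeq exon positions were not used here, so a RefSeq exon at these places would not have been seen. The outer end of Sp110 in the RefSeq table, 85610850, does lie within the first exon of the Sp110 model that began at 85610875.

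Most Sp140 models ended together. The 3′ end lay at 85645037 in 8 models and at 85645040, 3 bases on, in 7. The former is the end of Sp140 in GENCODE and the latter its end in RefSeq. All 7 models at the latter are exact matches, so their end may be taken over from the reference. One model ran 920 bases beyond the annotated end, to 85645957. The 3 early ends were a 1428-base last exon that continued exon 5 into its intron, in 1 model, and a 421-base last exon between exons 7 and 8, in 2 models.

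Internal splicing was where the long Sp140 models differed. Of the 16 models that crossed the second part of the gene, 7 began exon 12 at its annotated acceptor and 9 began it 3 bases later, without the CAG shown in capitals above. Exon 9 was included in 12 of these 16 models and spliced over in 4. The 81-base exon was included in 3 and spliced over in 13, and it is the exon that carries an annotated stop codon in another GENCODE transcript. Only 1 model held both the 81-base exon and exon 9, 2 held the 81-base exon alone, 11 held exon 9 alone, and 2 held neither.

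Near the 3′ end, 7 of the 16 models held exons 15 and 16, 7 held exon 16 without exon 15, 2 held neither, and none held exon 15 alone. All of these cassette exons have lengths divisible by 3, with 105 bases in exon 9, 78 in exon 15 and 144 in exon 16. Exon 7, of 54 bases, was included in 17 models and spliced over in 1. Donor sites also moved. Exon 10 ended 23 bases later in 2 models and at its annotated donor in 14, and exon 3 ended 50 bases later in 1 model and at its annotated donor in 10. Neither 23 nor 50 is a multiple of 3.

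The Sp140 models used 28 distinct introns, of which 20 were in GENCODE M21, 20 were in exact matches of the library and 5 were in neither.

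**Figure D4:**
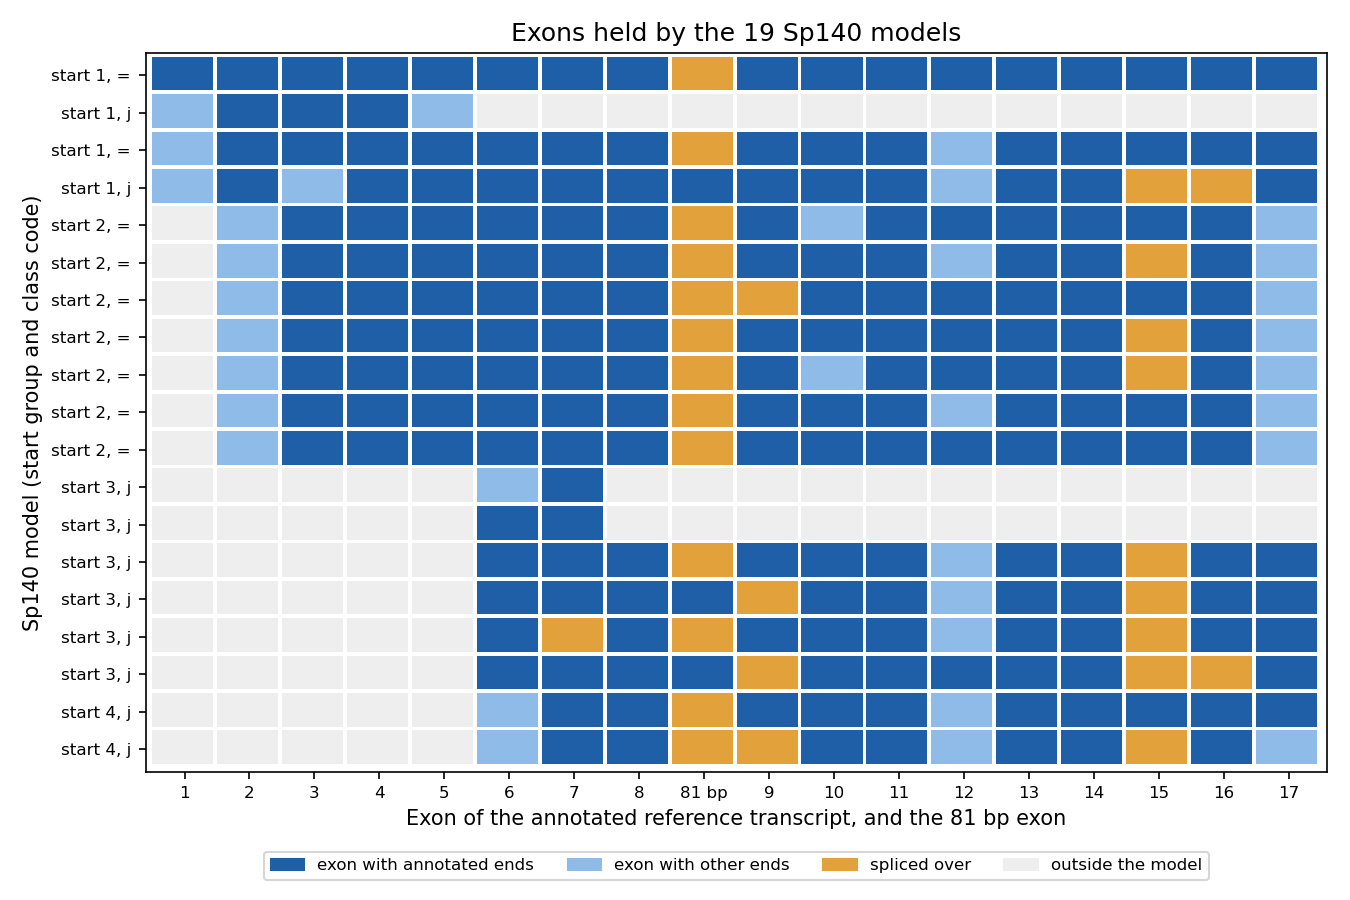
Each row is 1 of the 19 Sp140 models, ordered by start group, and each column is an exon of the 17-exon reference transcript or the 81-base exon: dark blue has the annotated ends, light blue other ends, orange is spliced over and grey lies outside the model. Exon 15 is orange in 9 rows and the 81-base exon is dark blue in 3.

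Sp110 is the family member that lies next to Sp140 on the opposite strand. Its 2 exact matches began at 85598810, with 12 exons, and at 85603891, with 13 exons. Both starts are also RefSeq starts, so they may be taken over from the reference. The first of these starts lies 1893 bases from the annotated Sp140 start, and from there the genes run away from each other. The second lies 3188 bases past the Sp140 start, within the first intron of Sp140, and 5081 bases from the other, so the model from it runs back across the Sp140 start on the opposite strand. Both models, and another of class n that kept an intron, held the whole annotated Sp110 coding sequence of 1335 bases with its start and stop codons. The class n model began at 85599098, 288 bases upstream of the nearer start, with a first exon of 214 bases outside the annotation. It kept an intron of 1528 bases and was the longest member model, with 3593 bases. Whether the kept intron interrupts its reading frame was not tested.

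The other 3 models named Sp110 held no base of any GENCODE Sp110 exon. A pair of them had 2 exons each and lay within Sp140, on the opposite strand to it, from 85607816 to 85610875 and from 85607816 to 85611060. They shared a last exon of 2487 bases, and both shared a splice site with the GENCODE gene Gm10552. Exons of Gm10552 overlapped up to 483 bases of these models. Up to 962 bases of these models lay over exons of the Sp140 models. The nearer of their starts fell 25 bases beyond the outer end of Sp110 in the RefSeq table, whose Sp110 is longer than that of GENCODE. The last model, chr1:85570735-85580889, had 2 exons and 1718 bases, and it ended at the other outer end of Sp110 in the RefSeq table, 85570735. The Sp110 models used 16 distinct introns, 11 of them in GENCODE M21 and 4 in neither GENCODE nor an exact match.

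The 6 Sp110 models each had a start group of their own, and 0.149% of named genes had at least 6 start groups. This share counts the 3 models that held no GENCODE Sp110 exon. In the RefSeq table the outer ends of Sp110 are 85570735 and 85610850. The former is also the end of the model chr1:85570735-85580889. The latter lies within the first exon, chr1:85610763-85610875, of a model inside Sp140. By class code, the pair inside Sp140 shared some splice sites with a reference transcript, and the remaining model overlapped a reference transcript on the same strand. Overlap with the other RefSeq Sp110 exons was not checked.

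Sp100, the founding member of the family, had no sense model. Its single model, chr1:85692079-85697259, lay on the minus strand while Sp100 lies on the plus strand. It had 4 exons and 555 bases, of which 80 bases, in 1 exon, overlapped an Sp100 exon. Its introns were 78 to 4462 bases long, and 0 of them was in GENCODE M21 on that strand. A missing model does not show that a transcript was absent, since read depth is unknown.

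The promoter windows differed among the members. The window at the farther Sp110 start held the stretch GGAACACACCTTTAATC 3 times, at 176, 123 and 70 bases before the start and so with a spacing of 53 bases. That stretch was chosen after the sequence was seen, as the longest that the window held 3 times, and it occurred in 0.0578% of 32851 windows. The searched windows, for this and the other motifs, held 250 bases before and 50 from the start, and so reach further than the printed ones. The core of the interferon-stimulated response element, 10 bases searched on both strands, was in none of the searched member windows and in 3.44% of all windows. A shorter form that lies within it, AANNGAAA, also chosen after the sequences were seen, occurred in pairs that share 1 base at the nearer Sp110 start, 9 and 16 bases after it, and 47 and 40 bases before the Sp100 start at 85649988. It was in 23.9% of all windows, and the Sp140 window, at 85600703, held none. No window was searched at the Sp140 starts 85609008, 85619434 and 85619641, at which 7, 6 and 2 models began. Sp110 model starts other than 85603891 and 85598810 had no window either.

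Several genes share long stretches of sequence with the members, so reads of one copy may have been placed on another. Transcripts of 11 annotated genes shared at least 150 bases with Sp140 at 90% identity or more, 8 of them on chromosome 1. The longest stretches on that chromosome were 979 bases at 96% identity in C130026I21Rik, which had 10 sense models by name, 881 bases at 98.8% in Gm2427, with 2 models, and 861 bases at 98.5% in A530032D15Rik, with 10 models. On chromosome 9, Arhgef12 shared 1236 bases at 98.5% on the opposite strand. Gm5831, which lies within the span of Arhgef12 on the other strand, shared 881 bases at 98.8%. A530040E14Rik likewise overlaps A530032D15Rik on the other strand, so the 11 genes need not be 11 separate copies. Sp110 shared sequence with 7 genes, among them Gm15753 on chromosome 5 over 1058 bases at 96.5%, with 2 models. Another of the 7, G530012D18Rik, overlaps the 3′ end of Sp110 on the opposite strand and shared 392 bases at 100%. It need not be a separate copy. Sp100 shared sequence with 4 genes, all on chromosome 1 and including Gm7592, over 355 bases at 98.3%, with 1 model. Which copy a given model came from was not tested.

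Around the family, within 250 kb, models were named for 7 other genes: Cab39 had 3 models, Itm2c 1, Gm2427 2, A630001G21Rik 1, Gm7592 1, Gm2666 2 of which 1 was sense, and 9930111H07Rik 3, all on the opposite strand. No model was named for 4933407L21Rik, Gm2619, Gm32302, Gm41905, Gm51745, Gm7281, Gpr55 or Mir8096. In the mouse RefSeq table the family lies between Slc16a14 and Cab39, an interval of 858 kb that held 70 mouse models. In the bovine library SLC16A14 and CAB39 had 1 model each on chromosome 2, and the 424 kb between them, chr2:118107082-118530759 of bosTau9, held 0 models. Gaps at least that long made up 6.88% of the 17205 gaps between bovine models. No bovine annotation was used here, so whether the bovine family lies in that interval was not checked. Of 11723 mouse protein-coding genes with a sense model, 28% had no bovine sense model of the same symbol, and among the 798 with at least 6 mouse models 15.7% had none.

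Most listed partners of the family in the PML nuclear body had a model in both species. As the level for all lists, 53.5% of the 21900 mouse protein-coding symbols had a sense model in the mouse library and 48.6% had one under the same symbol in the bovine library. Of 42 listed PML body and SUMO genes, 41 had a sense model in mouse (97.6%) and 40 in bovine (95.2%), with a median of 3 models per gene found, where the median over all named genes was 2. In mouse, Hira, a histone H3.3 chaperone subunit, and Senp7, a SUMO protease, had 9 models each, and Senp1, another SUMO protease, had 7. Tdg, a DNA glycosylase, had none. In bovine, HIPK3, a homeodomain-interacting protein kinase, had 10, and PML and HIRA had none under their symbols. In mouse Pml and its partners Daxx and Atrx, named here after their values were seen, had 3, 3 and 4 models.

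For interferon genes the shares were near those over all genes, 53.5% in mouse and 48.6% in bovine. Of 33 listed genes, 19 had a sense model in mouse (57.6%) and 16 in bovine (48.5%), with medians of 1 and 2 models per gene found. In mouse the genes without a model included Irf2, Irf8, Ifit1, Ifit2, Ifit3, Mx1, Mx2, Oas1a, Oas2, Oas3, Rsad2, Eif2ak2 and Usp18, and Stat2, Irf1, Irf3, Tyk2 and Samhd1 had 4 each, the most in the list. In bovine IRF3 had 6 models and JAK1 and ADAR 5 each, while IFNAR2, IFNGR2, IRF2, IFIT1, IFIT2, IFIT3, IFIH1, MX1, MX2, OAS1, OAS2, OAS3, RSAD2, BST2, EIF2AK2, USP18 and GBP2 had none under these symbols. Of the other SAND domain genes, Deaf1 had 4 models, Gmeb2 3 and Gmeb1 2 in mouse, and Aire had none. In bovine GMEB1 had 2 and DEAF1 1, while AIRE and GMEB2 had none.

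Marker genes of the labelled stages were assembled. All 12 mouse 2-cell genes, all 5 bovine activation genes and all 5 maternal oocyte genes in each library had a sense model. These lists were chosen with earlier results of these data known, so their full shares are no check of the labelled stages. Of 12 blood and immune cell genes 5 had a model in mouse, with 2 each for Cd74 and Cd79a and 1 each for Lyz2, C1qa and Itgam, while those without one included Ptprc, Cd3e, Cd14, Csf1r, Hbb-bt and Hba-a1. In bovine 6 of 12 had one (50%), beside 41.7% in mouse. Of 10 cumulus and granulosa cell genes 4 had a model in each library (40%). The shares over all protein-coding symbols were 53.5% in mouse and 48.6% in bovine. What part such cells had in the Sp140 and Sp110 models was not tested.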

How the data were processed

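Transcript models were deposited by the authors as 1 set per library, with exon positions in base pairs, gene names, class codes and start groups, per the file headers and attributes. The deposited values are of another kind than counts: no coverage or abundance is given. Builds were mm10 and bosTau9, per the submitters' processing notes, while no aligner, filter or version was given in the sources used here. In mouse, 68.4% of 16388 exact multi-exon matches (67.7% to 69.1%, Clopper-Pearson 95%) had an intron chain of GENCODE M21.

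Models were counted per gene name, with class codes =, c, k, m, n, j and o as sense. A first exon was outside the annotation when it overlapped no same-strand exon of GENCODE M21 or of an exact match, in a model sharing a splice site with them. This rule was tested on simulated models. Copies were sought with blastn 2.17.0 (e-value 1e-10). The members and lists were chosen with earlier results of these data known. Named list genes were those with most models and those with none, together with every gene within 250 kb. Protein features were planned but not computed. Some listed genes are not reported here by name.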

Additional observations from a re-analysis of the deposited data

How the results depend on the processing

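Counting only models with a reference intron chain left 11 of the 25 sense models of the 3 genes in mouse, 9 for Sp140 and 2 for Sp110, and 0.754% and 35.0% of genes then had at least as many exact matches as Sp140 and Sp110. Among genes of at least 10 exons, 0.24% and 11.7% had as many sense models. Counting every class code gave 26 models, by adding the Sp100 antisense model, one model per intron chain gave 25, and multi-exon models alone gave 25. Same-strand overlap with a GENCODE exon of the members gave 22, with 3 for Sp110. Leaving out the 2 Sp110 models within Sp140, an alternative chosen after seeing the data, gave 23. First exons outside the annotation numbered 8, and 8 with a 100-base tolerance. With the library's exact matches alone as the annotation they numbered 6. The 2 Sp110 models within Sp140 were then not counted, as they shared no splice site with an exact match. All bovine alternatives that could be run gave 0. Overlap with an exact bovine match could not be run, since no member had one. No paired analysis was possible because each species had 1 library. Depth is unknown, so no limit can be set on transcripts without a model.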
